A study of Mus musculus with 20 samples.

Results

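The 583 regions described here are those where H3K27ac, the acetylated form of lysine 27 of histone H3, stood relatively higher after NMDA than after the control treatment in mouse day 10 neurons, out of 119345 regions measured in both (0.488%). They were chosen by their measured values. From each region's log2 enrichment in the control and in the NMDA column the median of that column over all regions was subtracted, and regions with a centred NMDA value at least 1 above the centred control value were kept. The difference is therefore relative to a shift common to all regions, and because the same contrast chose the regions, their control and NMDA values are given as a description with no test. The 1632 regions (1.37%) that lay at least 1 lower by the same measure, called the lowered regions here, serve as the comparison. The series holds 20 samples in 10 groups of 2 libraries, from mouse cells with the strain label 159.2. Its other groups follow untreated differentiation from progenitors to neurons of day 1 and day 10. The groups used here are day 10 neurons given 200 µM NMDA for 6 h and day 10 neurons given DMSO alone for 6 h. Cultures of both groups were washed with a balanced salt solution before and after. No genetic change is named in the labels for either group, and whether a group's 2 libraries stem from separate cultures is not stated there.

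H3K27ac is laid down by the acetyltransferases CBP and p300, removed by histone deacetylases and bound by bromodomain proteins. It marks active promoters and enhancers, and separates active enhancers from those that are only primed. NMDA opens the NMDA class of glutamate receptors, which let calcium into neurons. Calcium signalling then switches on activity-regulated transcription factors, many of which act through enhancers, while strong or prolonged stimulation of these receptors can injure neurons.

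Each enrichment value was the log2 of a region's reads plus 16 over a scaled reference plus 16. Both libraries of a group had been merged into 1 column, so there is no spread between libraries, and every difference below compares 2 merged columns. The values allowed the whole reads behind them to be recovered for all 119345 regions. The columns held 12929397 reads in the control and 9413133 with NMDA, a ratio of 0.728. The sources used here do not name the reference or say whether libraries were matched in depth. The reference was the same for both columns and cancels from their difference, so reference reads are a measure that the choice of regions did not use. Region width was not used directly either, but wider regions held more reads, and read depth bears on the choice through the 16 added reads. Intervals of read ratios are exact 95% Clopper-Pearson intervals. They cover counting error only, since the merged columns hold no spread between libraries. Reads without molecular identifiers need not be independent molecules, so the intervals may understate even the counting error.

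Across the table, the median enrichment was 0.91 in the control and 0.74 with NMDA, a shift of -0.17 on the log2 scale. Among the raised regions it was 0.10 in the control and 1.05 with NMDA. The choice used both columns and so favours low control and high NMDA values, and the figures of this paragraph are a description only. By their medians, the raised regions lay below the typical region in control neurons and above it after NMDA. In the control column 481 of them (82.5%) lay in the lowest quartile group of all regions. In the NMDA column 481 (82.5%) lay above the NMDA median, and 150 (25.7%) reached its highest quartile group. In 175 raised regions (30.0%) the enrichment passed from below 0, the level of the reference, in the control to above 0 with NMDA. A value below 0 in the control was found in 213 raised regions (36.5%), against 2084 of all regions (1.75%). Another 51 raised regions (8.75%) already stood above the control median before the rise.

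The centred difference of the raised regions ran from 1.00 to 2.21 on the log2 scale, with a median of 1.10 and quartiles of 1.04 and 1.17. Most lay just above the threshold. A difference of at least 1.2 was reached in 118 (20.2%), of at least 1.5 in 20 (3.43%) and of at least 2 in 3. The regions just inside the threshold, at 1.00, were region 76574 (20 control and 48 NMDA reads), region 119281 (11 and 32) and region 35715 (2 and 16). Those just outside, at 0.997, were regions 60070, 16882 and 70717, each with 15 control and 39 NMDA reads. Regions go by the number in the authors' identifiers. Their position in the genome was not used here, so no gene, promoter or sequence is attached to them.

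**Figure D1:**
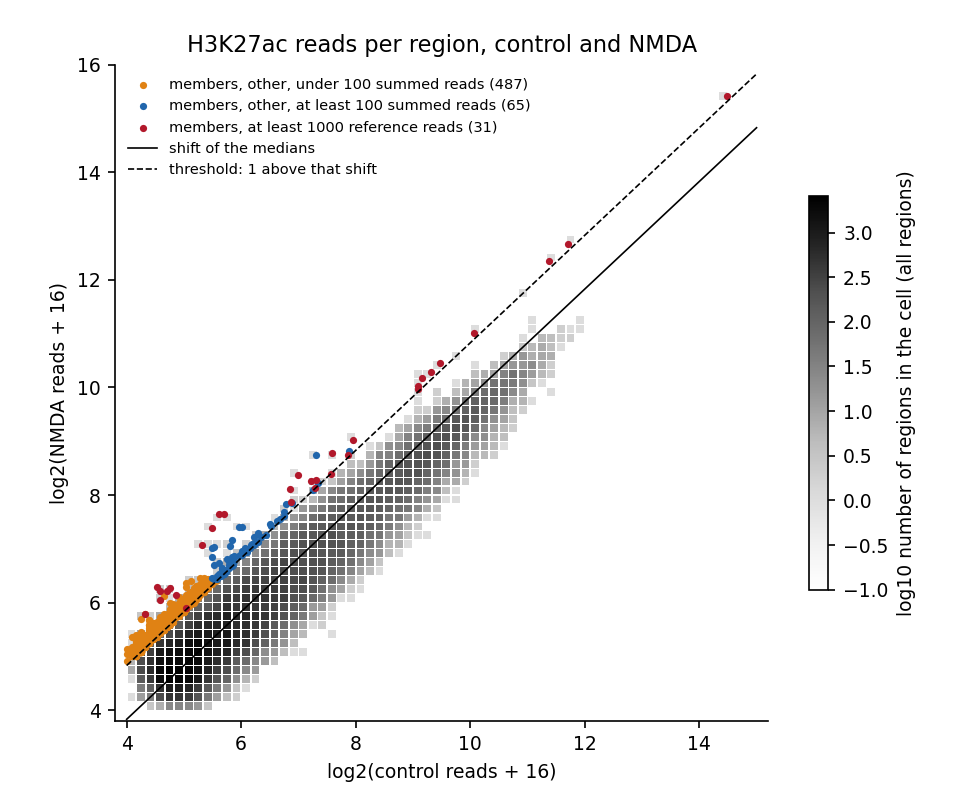
H3K27ac reads of each region, as log2 of the control reads plus 16 on the horizontal axis and log2 of the NMDA reads plus 16 on the vertical axis. Grey cells hold all 119345 regions (darker for more regions), coloured points the 583 raised regions in 3 classes, the solid line the shift of the medians and the dashed line the threshold. The bulk of the raised regions sits at the low end of both axes, and the points far to the upper right are regions with at least 1000 reference reads.

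The raised regions fell into 3 unlike kinds, divided here by reads at limits set after the values were seen, as the plot of reads by region shows. The largest kind, with 487 regions, had under 100 reads over both columns and under 1000 reference reads. The next, with 65, had at least 100 reads and under 1000 reference reads. The last, with 31, had at least 1000 reference reads. The same limits placed 83480, 35812 and 53 of all regions in these kinds. The raised shares were thus small in the first 2 kinds and over 50% in the last.

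The 487 thinly read regions had a median width of 206 bp, against 222 bp over all 83480 regions of this kind. Their control reads ran from 0 to 31 with a median of 7, and their NMDA reads from 14 to 72 with a median of 29. The median enrichment was 0.08 in the control and 1.03 with NMDA. Summed over them, 4427 control reads stood against 15821 NMDA reads, a ratio of 3.57 (3.46 to 3.70). Since this contrast chose the regions, the ratio is a description only. The 3 regions with no control read at all were region 2549 with 17 NMDA reads, region 70030 with 14 and region 77209 with 19, and no fold is given for them. Among all raised regions 308 (52.8%) had fewer than 10 control reads, against 10560 of all regions (8.85%), a contrast that the choice favours too. Region 47337 (9 control and 54 NMDA reads, difference 1.66) and region 1248 (3 and 36, difference 1.62) had some of the larger differences of this kind. Both were chosen after their values were seen.

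The 65 better-read regions combine the higher read counts with a reference under 1000 reads. Their median width was 425 bp. The control reads ran from 29 to 219 with a median of 43, and the NMDA reads from 71 to 433 with a median of 107. Their median enrichment was 1.14 in the control, above the control median of the table, and 2.11 with NMDA. Summed, 3638 control reads stood against 8198 NMDA reads, a ratio of 2.25 (2.17 to 2.34). Most of these regions were enriched for H3K27ac in control neurons already, and more so relative to other regions with NMDA. Over all 35812 regions of this kind the median width was 774 bp, and the median enrichment was 2.33 in the control and 1.96 with NMDA. Beside regions of their own kind, the 65 were thus narrow and low in the control, and the choice itself favours low control values.

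Region 49473 was the widest raised region at 1278 bp and had the highest NMDA enrichment. It held 142 control and 411 NMDA reads, a ratio of 2.89 (2.39 to 3.53), and its enrichment stood at 1.95 in the control and 3.38 with NMDA. Its centred difference of 1.60 was well above the threshold. Region 61396, at 1162 bp, held 94 and 212 reads, a ratio of 2.26 (1.76 to 2.91) and a difference of 1.22. Apart from these, only 1 raised region, with a very large reference, reached 1000 bp, whereas 11692 of all regions (9.80%) did.

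Region 98426, 291 bp wide, had the largest difference outside the regions of large reference, 1.70. Its reads were 29 in the control and 114 with NMDA, a ratio of 3.93 (2.60 to 6.13), and its enrichment was 1.14 and 2.67. It closed a run of 3 raised regions with consecutive numbers. Region 98425 held 29 and 99 reads with a difference of 1.52, and region 98424 held 21 and 54 with a difference of 1.09. Together the 3 held 79 control and 267 NMDA reads, a ratio of 3.38 (2.62 to 4.40). Region 13764, at 178 bp, had 30 control and 115 NMDA reads, a ratio of 3.83 (2.55 to 5.94) and a difference of 1.68. Region 117753, at 227 bp, had 49 and 154 reads, a ratio of 3.14 (2.27 to 4.43) and a difference of 1.56.

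The strongest control enrichment of any raised region belonged to region 84849, at 680 bp. It held 219 control and 433 NMDA reads, and its enrichment was 2.30 and 3.24, a centred difference of 1.10. Region 100645, at 435 bp, held 147 and 283 reads with a difference of 1.05. The read ratios of these were 1.98 (1.68 to 2.34) and 1.93 (1.57 to 2.37). Both, like regions 117753, 98425 and 98424, were chosen after their values were seen.

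**Figure D2:**
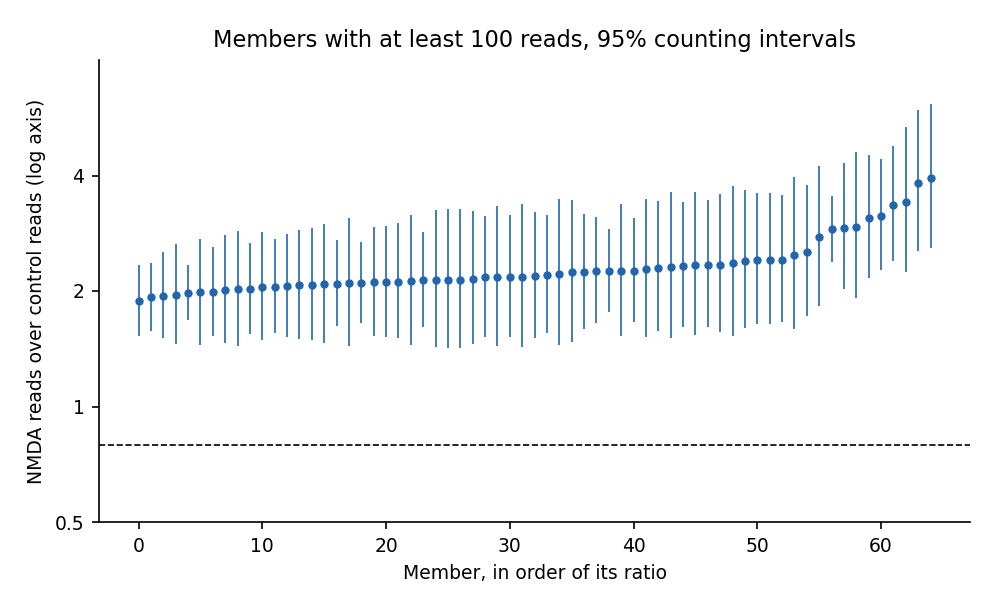
Ratio of NMDA to control reads (log axis) for the 65 raised regions with at least 100 reads and under 1000 reference reads, in order of the ratio. Points are ratios, bars the exact 95% counting intervals, and the dashed line the centre of the read ratio over all regions, 0.793; all 65 intervals lie above it, as the choice of regions makes likely, and the highest ratio is 3.93.

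Counting error gives a measure of how precise each region's read ratio was. The centre of the read ratio over all regions was 0.793, or -0.33 on the log2 scale. It was taken with 0.5 read added and lay below the shift of -0.17 that the rule used with 16 added. All 583 raised regions had an interval above it, as the rule makes likely, and so did 15185 of all regions (12.7%). An interval wholly above a 2-fold rise over that centre was found in 410 raised regions (70.3%) and in 458 of all regions (0.384%). Of those 458, 410 (89.5%) were raised regions. These shares also follow largely from the choice, which used the same reads. With 119345 regions and no replicates, these intervals order the regions by precision and do not test them.

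The 31 regions of large reference stood apart in a measure that the choice did not use. Of the 53 regions with at least 1000 reference reads, 31 (58.5%) were raised and 0 lowered, against 0.488% raised and 1.37% lowered of all regions. The median centred difference of the 53 was 1.06. With 300 to 1000 reference reads 5 of 57 regions (8.77%) were raised, with 100 to 300 only 2 of 2411 (0.083%), with 10 to 100 409 of 88330 (0.463%), and under 10 reads 136 of 28494 (0.477%). The raised share was thus under 0.5% in each class up to 300 reference reads and higher in both classes beyond. The enrichment of these 31 regions stayed below 0 in both columns. Their reference per 100 bp had a median of 2189 reads, against 5.36 over all regions. They held 34545 control and 67984 NMDA reads, a ratio of 1.97 (1.94 to 1.99). They made up 5.32% of the raised regions and most of their reads, since all raised regions together held 42610 and 92003, a ratio of 2.16 (2.13 to 2.18).

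Most of these 31 regions lay in 2 stretches of the numbering. The longest run of raised regions, 117703 to 117714, was 12 regions in a row. Their control reads ran from 4 to 36, their NMDA reads from 39 to 185 and their reference reads from 4019 to 20836. The enrichment lay between -7.57 and -6.23 in the control and between -5.58 and -4.78 with NMDA, so these regions held far fewer H3K27ac reads than the reference in both columns. Summed, 200 control reads stood against 1066 NMDA reads, a ratio of 5.33 (4.58 to 6.23). The differences ran from 1.03 to 2.21 with a median of 1.74.

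Of the 10 largest differences among all raised regions, 8 were in this run. Region 117703, at 886 bp, was the highest, with 33 control and 185 NMDA reads, a ratio of 5.61 (3.86 to 8.39) and a difference of 2.21. Region 117713 followed with 36 and 184 reads (2.11), then region 117712 with 29 and 151 (2.06). Regions 117709, 117708, 117704, 117707 and 117710 had differences of 1.93, 1.93, 1.79, 1.68 and 1.68. The 4 regions numbered just before the run, 117699 to 117702, had 468 to 829 reference reads and differences of 0.11 to 0.41. Region 117715, just after it, had 12 reference reads and a difference of 0.12.

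The other stretch, 110864 to 110886, held 23 regions, all with at least 589 reference reads, of which 16 were raised and 14 of these had at least 1000 reference reads. Differences in the stretch ran from 0.71 to 1.63 with a median of 1.12, and the median control enrichment was -2.26. All 23 together held 6496 control and 12802 NMDA reads, a ratio of 1.97 (1.91 to 2.03). Its best-read raised regions were 110864 with 1054 control and 2055 NMDA reads, 110877 with 696 and 1385, 110878 with 621 and 1236, 110866 with 553 and 1139, 110882 with 525 and 985 and 110873 with 233 and 504. The whole stretch lay high, and the threshold divided it. Region 110887, just after it, had 113 reference reads and a difference of -0.47.

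The other 5 regions of large reference included the most deeply read ones of the raised set. Region 65507, at 1151 bp, alone held 22888 control and 44058 NMDA reads beside 254548 reference reads. With regions 65505 (3312 and 6532 reads) and 65506 it formed a group of 3, of which 65506 at 0.95 fell short of the threshold. The 3 held 28229 and 54095 reads, a ratio of 1.92 (1.89 to 1.94). Region 112275 held 2643 and 5199 reads, a ratio of 1.97 (1.88 to 2.06). Region 24570 held 525 and 1025, a ratio of 1.95 (1.76 to 2.17), and region 33439 held 141 and 266, a ratio of 1.89 (1.53 to 2.33). Apart from the run of 12, the read ratios of these places lay between 1.89 and 1.97 over a wide range of depth. The places were picked for holding raised regions, so the threshold itself cuts off lower ratios. Other regions of large reference had lower ones, such as 1.66 at region 78684 and 1.22 at region 118947.

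**Figure D3:**
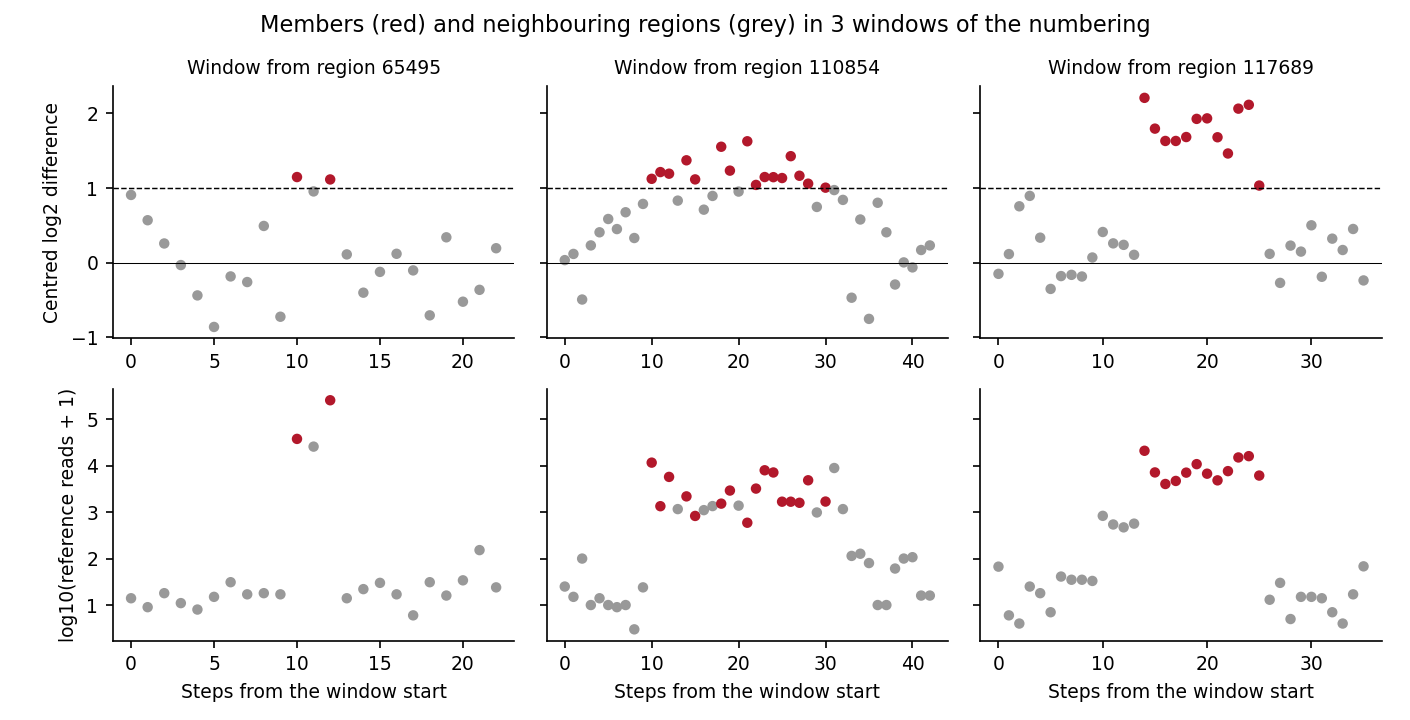
Centred log2 difference (upper row) and log10 of the reference reads plus 1 (lower row) for regions in 3 windows of the authors' numbering, with steps from the window's first region on the horizontal axis. Red points are raised regions, grey points the others and the dashed line the threshold of 1. In each window the raised regions all lie within the stretch of large references. Inside a stretch the differences need not follow the size of the reference. In the middle window the highest difference, 1.63 at region 110875, falls on 589 reference reads, while region 110864 with 11579 has 1.12. In the right-hand window, regions 117699 to 117702 had 468 to 829 reference reads but differences of only 0.11 to 0.41.

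The raised regions were narrower than the table as a whole. Their median width was 222 bp, against 289 bp over all regions and 696.5 bp for the lowered regions. Most raised regions were thinly read, and their median of 206 bp stood against 222 bp over all thinly read regions. For the better-read kind the medians were 425 bp against 774 bp over all regions of that kind. With at least 1000 reference reads they were 287 bp against 322 bp. At the smallest width, 149 bp, there were 79 raised regions (13.6%) and 9026 of all regions (7.56%). By quartile groups of all regions, the raised share was 0.733% at 149 to 190 bp, 0.628% at 191 to 289 bp, 0.487% at 290 to 535 bp and 0.104% above that. The lowered share ran the other way, from 0.0733% through 0.309% and 1.41% to 3.68%. The median difference of all regions moved too, from 0.11 in the narrowest group to -0.27 in the widest.

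By reads summed over both columns, a measure partly used by the rule, the raised share was 0.482% at 3 to 28 reads, 0.720% at 29 to 50, 0.525% at 51 to 128 and 0.229% above. The lowered share was 0.0324%, 0.294%, 1.51% and 3.69% in the same groups. The lowered regions had a median of 159.5 control reads and 55 NMDA reads, against 9 and 33 in the raised regions. The lowered share was thus highest among the widest and the best-read regions. The raised share was highest among the narrowest regions and, by reads, at 29 to 50, although region 65507, with the most reads in the table, was raised too. By reference reads per 100 bp, the quartile groups of all regions held 108, 105, 134 and 236 raised regions and 561, 483, 390 and 198 lowered ones, from the lowest to the highest. With 16 reads added, regions of few control reads can hardly be lowered by 1, and the lowered regions held at least 22. The low lowered shares among narrow and thinly read regions are thus partly set by the rule. With 1 read added in place of 16, there were 8473 raised and 8549 lowered regions. Width and depth move with the difference across the whole table, and their part in the choice of raised regions was not tested.

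**Figure D4:**
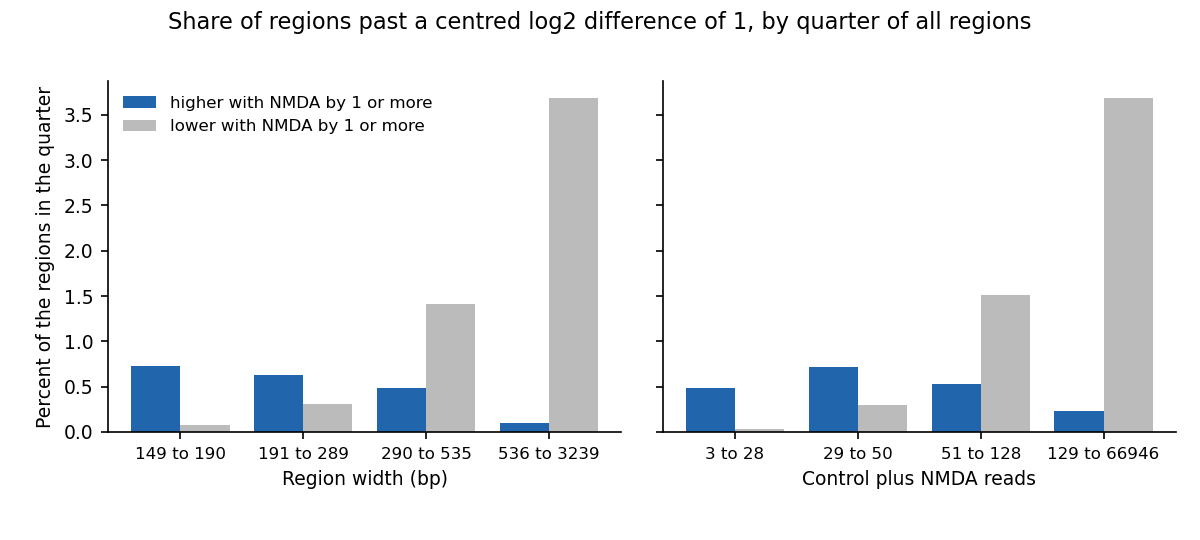
Percent of regions at least 1 higher (blue) or at least 1 lower (grey) with NMDA after centring, in quartile groups of all regions by width in bp (left) and by summed control and NMDA reads (right). Blue bars fall from 0.733% in the narrowest group to 0.104% in the widest, while grey bars climb from 0.0733% to 3.68%.

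Whether neighbours in the authors' numbering are neighbours in the genome is not stated in the sources used here. The values of adjacent numbers were related, however. The centred difference of adjacent regions had a Pearson r of 0.26 over 119344 pairs, against 0.09 at 10 steps and -0.00015 at 1000 steps. For control enrichment r was 0.32 at 1 step. These are descriptions across regions of the same libraries, with no p.

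Regions numbered next to a raised region, but not raised themselves, lay higher than the rest. Their median difference was 0.17 over 1100 such neighbours, of which 68% were above 0 and 19.6% at least 0.5. Over all 118762 regions that were not raised, the median was -0.04, with 46.4% above 0 and 9.51% at least 0.5. Beside the 65 better-read raised regions the median was 0.32 at 1 step (124 neighbours), 0.24 at 2 steps and 0.10 at 5 steps. Beside the 487 thinly read ones it was 0.17 (961 neighbours), 0.12 and 0.06. At 100 steps the medians were 0.01 and -0.03. The neighbours' values played no part in the choice, apart from being short of the threshold. Beside the better-read regions the median was 0.12 at 10 steps, so the fall with distance was not even. Beside the 31 regions of large reference the median was 0.12 at 1 step (17 neighbours), 0.24 at 2 and 5 steps, 0.22 at 10 and -0.06 at 100.

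**Figure D5:**
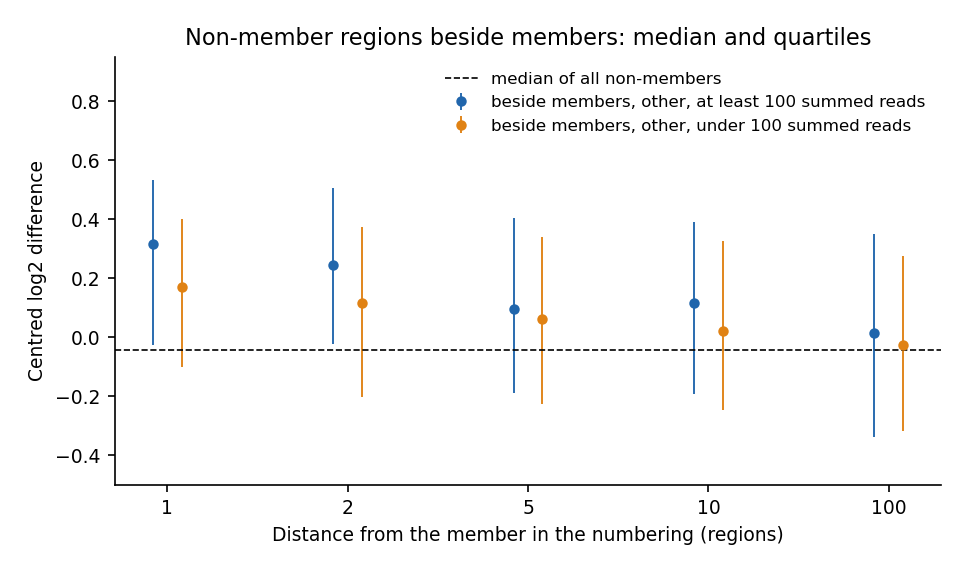
Median (points) and quartiles (bars) of the centred log2 difference of regions that were not raised, by their distance in the numbering from a raised region. Blue marks neighbours of the 65 better-read raised regions, orange those of the 487 thinly read ones and the dashed line the median of all regions not raised, -0.04; the blue median falls from 0.32 at 1 step to 0.01 at 100 steps.

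Most raised regions stood alone all the same, since 543 of 583 were in no run of consecutive raised numbers. The 11 runs held 40 regions; 7 were pairs, and 4 runs of 3 or more held 26. Counting raised regions at most 10 numbers apart, and leaving out those of large reference, there were 9 groups of 3 or more with 27 regions and 38 pairs. One such group spanned regions 30676 to 30693, where 3 of 18 regions were raised with 57 to 76 control and 118 to 156 NMDA reads. The other 15 had a median difference of 0.35, and 13 of them lay above 0. With the numbering cut into 10 equal parts, the first 9 parts held 44 to 63 raised regions each and the last held 88, or 61 without those of large reference.

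How many regions count as raised depends on how the 2 columns are set against each other. With the medians aligned there were 583 raised and 1632 lowered regions, so 26.3% of the changed regions were raised. Without centring the counts were 151 and 4272 (3.41% raised). With the columns aligned on their means they were 811 and 1207 (40.2%). With the best-read quartile group of regions aligned they were 2529 and 401 (86.3%), and with the total reads aligned 3927 and 249 (94.0%). All 583 raised regions were among those raised under the last 3 scalings, and 151 of them (25.9%) were raised with no centring. Each scaling takes another constant from the same differences, so the sets are nested by construction and their overlap says nothing about stability. Which direction prevailed in the table turned with the scaling.

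RNA of the same kinds of culture gave a separate measure, with 2 control and 2 NMDA libraries of 15008112 to 20149813 reads. Values are normalised read counts, changes are log2 differences of value plus 1 with their standard error, and adjusted p-values come from limma over all 13888 genes tested. Of these, 2845 (20.5%) rose and 2979 (21.5%) fell. Of the 4 acetyltransferase genes, 3 fell and 1 rose, with a median change of -0.39 against -0.01 over all genes tested. Crebbp, which encodes CBP, had 2349 and 2223 counts in the control libraries and 1270 and 1282 with NMDA, a change of -0.84 ± 0.08 (limma adjusted p = 0.000698). Ep300, which encodes p300, had 2543 and 2257 against 1650 and 1739, a change of -0.50 ± 0.09 (limma adjusted p = 0.00336). The groups did not overlap in either gene, but with 2 libraries each this also held for genes that did not pass the test, such as Hdac4 and Mef2a. In bulk samples like these, fewer cells of a type and less RNA per cell cannot be told apart. Kat2a fell by 0.27 ± 0.08 and Kat2b rose by 0.54 ± 0.15 (limma adjusted p = 0.0251 and 0.0204).

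Of 13 deacetylase genes 1 rose, 1 fell and 11 did not pass the test, where 20.5% of all genes tested rose and 21.5% fell. Hdac1, from 500 and 466 counts to 783 and 890, rose by 0.79 ± 0.10 (limma adjusted p = 0.00114), and Hdac11 fell by 0.25 ± 0.08 (0.0418); both were named after their values were seen. Brd2, which encodes a bromodomain reader of acetylated histones, fell by 0.49 ± 0.09 (limma adjusted p = 0.00328). Several of these calls were lost when 1 library was left out, which leaves 1 in that group. The changes kept their direction. Over these fits the change lay between -0.30 and -0.25 for Kat2a, between 0.40 and 0.67 for Kat2b and between -0.53 and -0.45 for Brd2. Without control replicate 1 the limma adjusted p was 0.0691 for Ep300, 0.203 for Kat2a, 0.175 for Kat2b, 0.311 for Hdac11 and 0.057 for Brd2. Without control replicate 2 it was 0.131 for Kat2a, 0.0534 for Kat2b, 0.137 for Hdac11 and 0.0714 for Brd2, and without NMDA replicate 2 it was 0.0565 for Kat2a, 0.1 for Kat2b and 0.106 for Hdac11. With DESeq2 the adjusted p was 0.061 for Kat2a and 0.0755 for Hdac11.

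Of 13 tested genes of activity-regulated enhancer factors, 8 rose and 1 fell, with a median change of 0.73. Over all genes tested 20.5% rose and 21.5% fell. Npas4, an activity-dependent factor, had 44.0 and 53.9 counts in the control libraries and 404 and 493 with NMDA, a change of 3.17 ± 0.17. Fosb, an AP-1 subunit, had 53.9 and 74.3 against 343 and 490, a change of 2.68 ± 0.22 (limma adjusted p = 0.000565 for both). Fos rose by 2.19 ± 0.21 and Srf, the serum response factor, by 0.73 ± 0.10 (limma adjusted p = 0.000698 and 0.00125). Jun, named after its value was seen, fell by 0.41 ± 0.13 (limma adjusted p = 0.0373); that call was lost without control replicate 1 (0.0814), control replicate 2 (0.292) or NMDA replicate 1 (0.127). Without control replicate 1 there were 5 rises among these factors.

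Markers of cell types moved in the same libraries, where 20.5% of all genes tested rose and 21.5% fell. Of 8 pan-neuronal genes 6 fell and 0 rose, and their summed counts were 101200 and 106979 in the control libraries and 86013 and 76009 with NMDA. Of 5 glial genes 4 rose (summed counts 1480 and 1843 against 2254 and 3769). All 4 mesenchyme genes rose (100595 and 90529 against 187914 and 251314), and so did all 4 progenitor genes (1024 and 1255 against 1901 and 2413). No marker of these 4 lists was at 0 in any library, so genes of neurons and of the other cell types were both detected. The part of these shifts in the H3K27ac of the raised regions was not tested, and no gene was linked to a raised region.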

How the data were processed

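Day 10 neurons given NMDA or DMSO were used, 2 libraries per group for H3K27ac and 2 for RNA. The H3K27ac table held log2 enrichment that the authors deposited as 1 merged column per group, with region width. The RNA table held, per gene and library, a deposited signal of normalised read counts. The build mm9 and the tools TopHat, Bowtie, HTSeq and DESeq are named, without versions or roles, per the submitters' processing notes; the sources used here do not give peak caller, annotation or strandedness, so reads of overlapping or antisense genes cannot be told apart.

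Whole H3K27ac reads were recovered from the deposited log2 values as reads plus 16 over 0.446 times whole reference reads plus 16, within a tolerance of 1e-07. Each column was centred on its median. RNA reads were recovered as multiples of 1 step per library (99.98% to 100% of values whole within 0.0051). Genes with a mean of at least 10 were tested with limma 3.58.1 (R 4.3.3) on log2(value + 1), 2-sided, calling genes at a Benjamini-Hochberg adjusted p under 0.05; 13888 of 21937 passed the filter. This scale understates changes of low genes. edgeR 4.0.16, DESeq2 1.42.0, a pseudocount of 5, no filter, a replicate block and leaving out each library were alternatives for RNA; scaling, threshold, added reads, and filters on reads, width and reference for H3K27ac. The scripts were tested on simulated data. The libraries may be technical replicates, and p-values then reflect no more than their spread.

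The regions and gene lists were chosen with earlier results of these data known. Regions named were the 10 largest differences, the 10 with most reads, the 3 widest and 3 on each side of the threshold; genes named were up to 4 past the threshold per list of acetyltransferases, readers and enhancer factors, by smallest p. Others are marked, and 1 result is not reported here. Map2 was matched by an older symbol. The stage H3K27ac and FAIRE tables share no region identifiers with this table and were not used, nor were genes near regions.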

Additional observations from a re-analysis of the deposited data

How the results depend on the processing

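The number of raised regions, 583 as reported, was 151 with no centring, 2529 with the best-read quartile group aligned, 3927 with total reads aligned, 2253 at a difference of at least 0.8, 20 at 1.5, 8473 with 1 read added in place of 16, 20 with 64 added, 227 with at least 50 reads and 363 without the narrowest quartile group. It was 552 without regions of at least 1000 reference reads, a setting chosen after seeing the data. Median width was 262 bp at 1.5, 186 bp with 1 read added, 309 bp with 64, 342 bp with at least 50 reads and 285 bp without the narrowest quartile group. Median control and NMDA enrichment were 0.031 and 1.12 with no centring, 0.25 and 1.01 with the best-read quartile group aligned, 0.29 and 0.98 with total reads aligned, -4.34 and -2.92 at 1.5, 0.25 and 0.78 with 1 read added, -2.33 and -1.34 with 64, 0.47 and 1.43 with at least 50 reads, and 0.20 and 1.17 without the narrowest quartile group. At 0.8 the control median was 0.24. The NMDA medians at 1.5 and with 64 reads added lay below the 0.74 of all regions, where the reported one lay above it. Fewer or more regions entered each set. At 1.5 the set included most of the run of regions 117703 to 117714. Enrichment in that run lay between -7.57 and -6.23 in the control and between -5.58 and -4.78 with NMDA. The cause of the moves was otherwise not tested. No paired analysis was possible because the H3K27ac columns were merged over libraries, and no library could be left out there.

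For RNA, falls among the 20 acetylation genes were 6, or 10 with the replicate block. Same-numbered libraries had correlated deviations (r = 0.34 over 13888 genes), but with 2 pairs they share only a number. Leaving out each library gave 1 to 3 rises (2 as reported) and 2 to 9 falls among acetylation genes, and 5 to 8 rises and 0 to 1 falls among enhancer factors. The 0 falls among enhancer factors in limma came without control replicate 1 (1 fall at unadjusted p under 0.05), control replicate 2 (0) or NMDA replicate 1 (0). A lone library was assumed to vary like the other group. Of the settings for single genes 100 kept the call and 17 lost it. As for depth, 308 of the raised regions had fewer than 10 control reads.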

Other observations

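Not every region of large reference was raised. Region 118947 had 10220 reference reads with 1103 control and 1345 NMDA reads, a ratio of 1.22 (1.13 to 1.32) and a centred difference of 0.45. Region 95760 had 8247 reference reads with 664 and 910 reads, a ratio of 1.37 (1.24 to 1.52) and a difference of 0.62. In regions 16440 to 16467, 10 regions had 322 to 1273 reference reads and 0 were raised; their read ratio was 0.890 (0.850 to 0.932). In regions 51205 to 51208, 3 regions with 678 to 1414 reference reads had a ratio of 0.942 (0.888 to 0.999). At the end of the numbering, regions 119299 to 119345 included 30 with at least 300 reference reads, of which 2 were raised, with a ratio of 1.19 (1.15 to 1.23). All of these were chosen after their values were seen.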
